A study of Mus musculus with 6 samples.

Results

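The respiratory chain subunits described here are the 84 loci, of 24402 in the table of all loci, whose gene symbol belongs to the nuclear families *Nduf* (complex I), *Sdh* (complex II), *Uqcr* (complex III), *Cox4* to *Cox8* (complex IV) and *Atp5* (complex V). They were chosen by symbol alone, with pseudogenes left out, and the muscle isoforms of complex IV (*Cox6a2*, *Cox7a1* and *Cox8b*, 3 loci) were kept apart. RNA came from whole lungs of C57BL/6 mouse embryos at 12.5 *dpc*, from wild-type embryos and from *Yap* mutant littermates of the genotype Yap-flox/flox; Shh-Cre/+, with 3 libraries of each. In the mutants, Cre recombinase made from the *Shh* locus deletes floxed *Yap* in the epithelium, and the surrounding mesenchyme keeps the gene. The deposited table holds 1 FPKM value (fragments per kilobase of transcript, scaled to the mapped fragments of the library) for each genotype, so the spread between libraries and the depth of each library are unknown, no test across libraries could be made, and each comparison is of those authors' values.

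The respiratory chain sits in the inner mitochondrial membrane. Complexes I and II pass electrons from NADH and succinate to ubiquinone, complex III passes them on to cytochrome c, and complex IV (cytochrome c oxidase) hands them to oxygen. Protons pumped on the way drive complex V, the ATP synthase. Most subunits are encoded in the nucleus and made in nearly every cell, whereas a few subunits of complex IV exist in additional isoforms for heart and skeletal muscle, for lung and vessels or for testis.

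The tissue and the contrast were checked first. *Yap1* had 76.1 FPKM in wild-type and 65.6 FPKM in *Yap* mutant lungs. Of 12 markers of lung epithelium, all 12 had at least 2.31 FPKM in both genotypes, and 10 were lower in the mutants, such as *Nkx2-1* (61.9 and 35.9 FPKM), with a median log2 ratio of -0.61. The other two, *Sftpc* (28.4 and 55.8 FPKM) and *Id2* (118 and 211 FPKM), were higher. The largest fall was that of *Shh* (15.6 and 2.31 FPKM, log2 ratio -2.71), the locus that carries Cre in the mutants. The paper holds that use of this Cre allele contributed to lower *Shh*, though it was unlikely to be the only reason. Of 16 cardiac muscle markers, all 16 were higher in the mutants and none (0) was listed at 0, and their summed level was 133 FPKM in wild-type and 996 FPKM in *Yap* mutant lungs. Wild-type values of the Y-linked genes *Uty*, *Kdm5d*, *Eif2s3y* and *Ddx3y* were no higher than 0.0163 FPKM, those in *Yap* mutant lungs were 4.61 FPKM or more, and *Xist* had 97.0 and 50.4 FPKM. Their part in the values below was not tested, unless a value is given. In whole-lung RNA, fewer cells of a type and less RNA per cell cannot be told apart.

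The 84 loci hold 73 ubiquitous subunits, 3 muscle isoforms and 8 other symbols that the families take in. These 8 are the tissue isoforms *Cox4i2*, *Cox6b2*, *Cox7b2*, *Cox8c* and *Ndufa4l2*, and the relatives *Cox7a2l*, *Atp5s* and *Atp5sl*. A mean over both genotypes of at least 1 FPKM was required for medians and counts, which 79 of the 81 loci other than the muscle isoforms met. The 2 that did not were the testis isoforms *Cox7b2*, at 0.0513 and 0.105 FPKM, and *Cox8c*, listed at 0 in both genotypes. Subunits outside the families were given from lists, of which that of further ATP synthase genes was added later. *Ndufab1*, the acyl carrier subunit of complex I, had 143 and 144 FPKM in wild-type and *Yap* mutant lungs. *Cyc1*, which encodes cytochrome c1 of complex III, had 151 and 155 FPKM. The ATP synthase genes *Usmg5* and *Atpif1* (its inhibitor) had 270 and 276 FPKM, and 307 and 316 FPKM. The subunits encoded in the mitochondrial genome were not analysed here, where 1 locus without a gene symbol was listed at 0 in both genotypes.

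Levels differed between the complexes in both genotypes. The median FPKM in wild-type lungs was 278 over the 17 loci of complex V, 221 over 13 of complex IV, 179 over 8 of complex III, 110 over 4 of complex II and 90.4 over 37 of complex I. In *Yap* mutant lungs these medians were 295, 237, 189, 114 and 102 FPKM. The order of complexes IV and V depends on the tissue isoforms and relatives: over the ubiquitous subunits alone, the median was 341 and 353 FPKM for complex IV and 319 and 320.2 FPKM for complex V. The ranges of neighbouring complexes overlapped. Wild-type values ran from 88.6 to 295 FPKM for complex III and from 92.5 to 127 FPKM for complex II. The summed FPKM of the 79 loci made up 2.60% of all FPKM in wild-type and 2.80% in *Yap* mutant lungs. Complex V alone took 0.988% and 1.05% of all FPKM. Across the 73 ubiquitous subunits, the wild-type level and the exon length of the gene had a Spearman correlation of -0.34. This correlation is across genes of the same libraries, with lengths from 371 bases (*Atp5k*) to 4912 bases (*Atp5g1*). The lengths join the exons of all annotated forms of a gene, and can exceed that of the transcript measured. FPKM of transcripts shorter than a sequenced fragment depends on how the length was corrected, which was not tested.

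**Figure D1:**
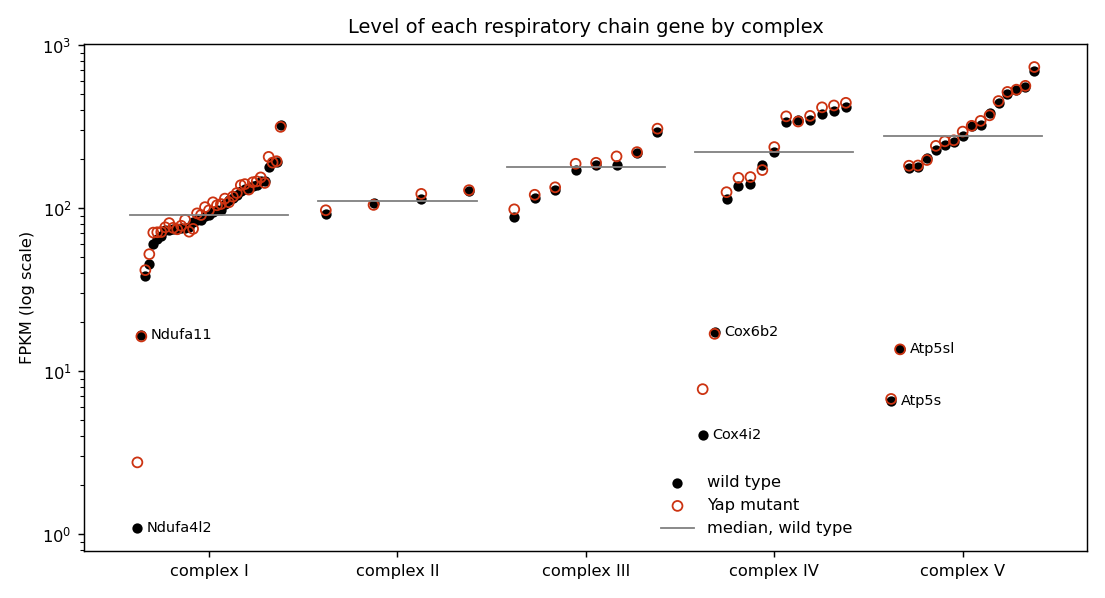
Each point is a gene past the filter of 1 FPKM, placed by complex and, within it, by level; the vertical axis is FPKM on a log scale, filled points are wild-type and open points *Yap* mutant lungs, and the grey line is the wild-type median of the complex. Filled and open points lie close together for nearly all genes, while *Ndufa4l2* (1.09 and 2.76 FPKM) and *Cox4i2* (4.08 and 7.75 FPKM) stand apart from their complexes and between genotypes.

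For the comparison of genotypes, each locus was given the log2 ratio of *Yap* mutant over wild-type FPKM, with 0.1 FPKM added to both values. The 79 loci had a median log2 ratio of 0.07, a level about 5.29% higher in the mutants, beside -0.01 over all 12716 loci that passed the same filter. Of the 79, 63 were higher and 16 were lower in *Yap* mutant lungs. Over all loci, 48.2% were higher. The shift was small at each gene. All 73 ubiquitous subunits lay within 1.2-fold, beside 79.05% of all loci and 89.0% of the 7304 loci whose mean was 10 FPKM or more. Less than 1.1-fold apart were 63 of the 73 (86.3%), beside 59.1% and 70.5%. The 7304 loci are not matched in level, with a wild-type median of 25.4 FPKM against 138 FPKM for the ubiquitous subunits. Those well-expressed loci had a median log2 ratio of -0.03, and 40.5% of them were higher in the mutants.

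A level at least 25% higher or 20% lower in *Yap* mutant lungs, a log2 ratio of 0.32 in either direction, was taken as a difference. By this threshold 2 of the 79 loci were higher and 0 were lower. Over all loci, 9.63% were higher and 6.8% were lower by this much. The 2 higher loci were *Ndufa4l2* and *Cox4i2*, both tissue isoforms and both low in level. With 3 libraries reduced to 1 value for each genotype, it is unknown whether any of these differences exceeds the spread between libraries.

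**Figure D2:**
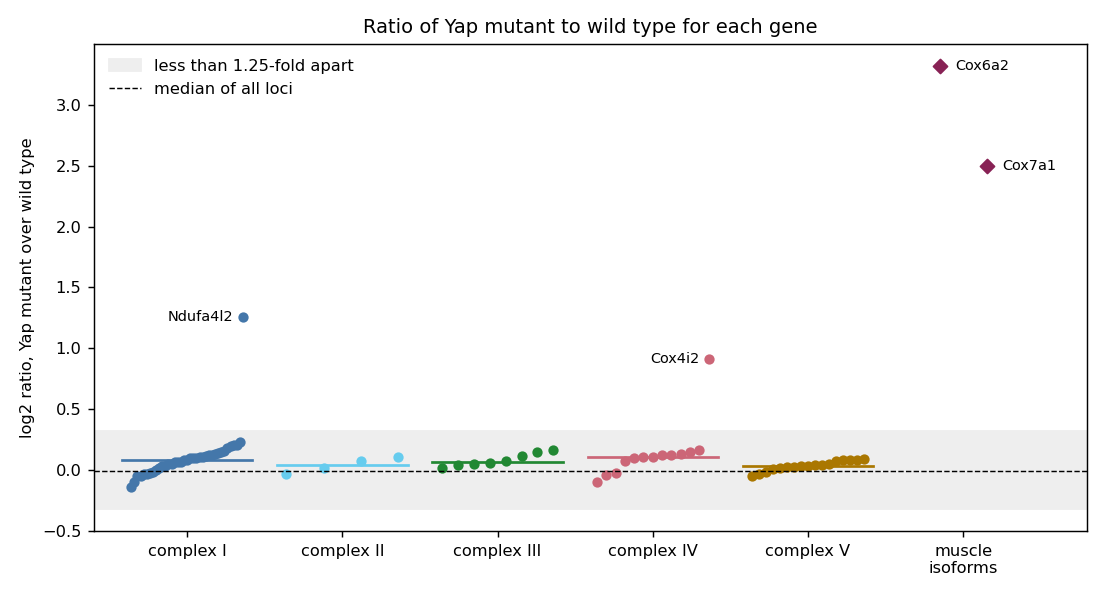
The vertical axis is the log2 ratio of *Yap* mutant over wild-type FPKM, with 1 point for each gene of complexes I to V and, as diamonds, the muscle isoforms *Cox6a2* and *Cox7a1*; coloured lines are medians of the complexes, the dashed line is the median of all loci, and the grey band marks ratios inside the threshold of 0.32 in either direction. The medians of the complexes lie between 0.04 and 0.10, and the 4 genes outside the band are *Ndufa4l2*, *Cox4i2*, *Cox6a2* and *Cox7a1*.

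Complex I had a median log2 ratio of 0.09 over 37 loci, of which 28 were higher and 9 lower in *Yap* mutant lungs. Its 7 nuclear core subunits, which carry the flavin and the iron-sulfur clusters of the electron path, had a median of 0.10. *Ndufv1*, the flavoprotein that takes electrons from NADH, had 64.7 FPKM in wild-type and 71.2 FPKM in *Yap* mutant lungs (log2 ratio 0.14). *Ndufs1*, the largest of the iron-sulfur subunits, had 45.3 and 52.2 FPKM (log2 ratio 0.21), although its locus span is shared with 3 other rows of the table. The core subunit *Ndufs8* went the other way, with 82.0 FPKM in wild-type and 74.6 FPKM in *Yap* mutant lungs, and its log2 ratio of -0.14 was the lowest of all members. The core subunits thus differed among themselves in direction, with 6 of 7 higher in the mutants.

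Among the accessory subunits of complex I, the B group, which belongs to the membrane arm, had a median log2 ratio of 0.09, with 8 of 10 loci higher. *Ndufb8* had 179 and 206 FPKM (log2 ratio 0.20), and *Ndufb2* had 94.5 and 109 FPKM (log2 ratio 0.20). The lowest of the group was *Ndufb6*, at 148 FPKM in wild-type and 143 FPKM in *Yap* mutant lungs (log2 ratio -0.05). For the A group, 9 of 13 loci were higher, with a median of 0.06. *Ndufa4* had the highest level of the family, at 322 and 316 FPKM (log2 ratio -0.03). Its protein is now counted with complex IV. *Ndufa11*, a membrane arm subunit, was far lower than the rest, at 16.6 and 16.3 FPKM. The accessory subunit *Ndufv3* had the largest ratio of any ubiquitous subunit, with 60.3 FPKM in wild-type and 70.8 FPKM in *Yap* mutant lungs (log2 ratio 0.23). *Ndufs5* and *Ndufs6* were lower in the mutants, at 77.0 and 71.7 FPKM (log2 ratio -0.10) and at 112 and 109 FPKM (log2 ratio -0.05).

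Complex II, succinate dehydrogenase, is made of 4 subunits and also takes part in the tricarboxylic acid (TCA) cycle. The catalytic flavoprotein *Sdha* had 92.5 FPKM in wild-type and 97.1 FPKM in *Yap* mutant lungs (log2 ratio 0.07). Its iron-sulfur partner *Sdhb* had 107 and 105 FPKM (log2 ratio -0.03). The membrane anchors *Sdhc* and *Sdhd* had 127 and 129 FPKM (log2 ratio 0.02) and 114 and 122 FPKM (log2 ratio 0.11). The 4 genes lay close to each other in level, and their median log2 ratio was 0.04.

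In complex III, all 8 loci were higher in *Yap* mutant lungs, each by less than the threshold, and the median log2 ratio was 0.07. The Rieske iron-sulfur protein *Uqcrfs1* had the lowest level, at 88.6 and 98.4 FPKM (log2 ratio 0.15). The core proteins *Uqcrc1* and *Uqcrc2* had 130 and 134 FPKM (log2 ratio 0.05) and 115 and 121 FPKM (log2 ratio 0.08). Among the small subunits, *Uqcr10* had the largest ratio, with 185 and 208 FPKM (log2 ratio 0.17), and *Uqcrb* the smallest, with 218 and 221 FPKM (log2 ratio 0.02). *Uqcrh*, which aids the contact with cytochrome c, had the highest level, at 295 and 308 FPKM.

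The ubiquitous subunits of complex IV, 10 loci, had a median log2 ratio of 0.10, and 8 of them were higher in *Yap* mutant lungs. The most abundant was *Cox4i1*, at 415 FPKM in wild-type and 443 FPKM in *Yap* mutant lungs (log2 ratio 0.10), followed by *Cox7c* at 397 and 427 FPKM. *Cox7a2* had 140 and 155 FPKM (log2 ratio 0.15). Its relative *Cox7a2l* had 137 and 153 FPKM (log2 ratio 0.17). *Cox5a* was the lowest by ratio, with 184 and 171 FPKM (log2 ratio -0.10), and its partner *Cox5b* had 221 and 237 FPKM (log2 ratio 0.10). *Cox6c* had 346 and 340 FPKM (log2 ratio -0.02).

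Complex V had a median log2 ratio of 0.04 over 17 loci, of which 14 were higher. *Atp5b*, the catalytic beta subunit, had the highest level of all members, at 692 FPKM in wild-type and 735 FPKM in *Yap* mutant lungs (log2 ratio 0.09), and the alpha subunit *Atp5a1* had 499 and 517 FPKM (log2 ratio 0.05). The gamma subunit *Atp5c1*, the rotating shaft, had 228 and 241 FPKM (log2 ratio 0.08). *Atp5e*, the small epsilon subunit of the shaft's foot, was lower in the mutants, at 383 and 371 FPKM (log2 ratio -0.05). The peripheral stalk genes *Atp5h* and *Atp5j* had 278 and 295 FPKM (log2 ratio 0.08) and 202 and 198 FPKM (log2 ratio -0.03). Subunit c, which forms the proton-driven ring, is encoded by 3 genes with the same mature protein. They summed to 1148 FPKM in wild-type and 1171 FPKM in *Yap* mutant lungs, and the shares of *Atp5g1*, *Atp5g2* and *Atp5g3* were 15.6%, 38.4% and 46.0% in wild-type and 15.6%, 38.8% and 45.6% in *Yap* mutant lungs. The relatives *Atp5s* and *Atp5sl* were low, at 6.58 and 6.76 FPKM and at 13.7 and 13.6 FPKM.

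The muscle isoforms stood apart from all other members. *Cox6a2* (chromosome 7, with a locus from 128173946 to 128208860 that also covers 2 other rows) had 1.80 FPKM in wild-type and 18.9 FPKM in *Yap* mutant lungs, a log2 ratio of 3.32. *Cox7a1* (chromosome 7, 30184171 to 30186030) had 1.40 and 8.35 FPKM, a log2 ratio of 2.50. *Cox8b* (chromosome 7, 140898942 to 140900446) was listed at 0 in wild-type lungs and had 2.0 FPKM in *Yap* mutant lungs. Its mean of 0.999 FPKM missed the filter, and no ratio is given. All 3 were thus higher in the mutants.

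These isoforms remained a minor part of each pair with the ubiquitous gene that takes the same place in the complex. *Cox6a2* made up 0.533% of the summed FPKM of *Cox6a2* and *Cox6a1* in wild-type and 4.90% in *Yap* mutant lungs. *Cox7a1* went from 0.986% to 5.10% of its sum with *Cox7a2*, and *Cox8b* from 0% to 0.478% of its sum with *Cox8a*. The ubiquitous partners were themselves slightly higher in the mutants. *Cox6a1* had 337 and 366 FPKM (log2 ratio 0.12), and *Cox8a* had 381 and 416 FPKM (log2 ratio 0.13). The added FPKM of *Cox6a1*, 29.3, was larger than the 17.1 FPKM added by *Cox6a2*.

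**Figure D3:**
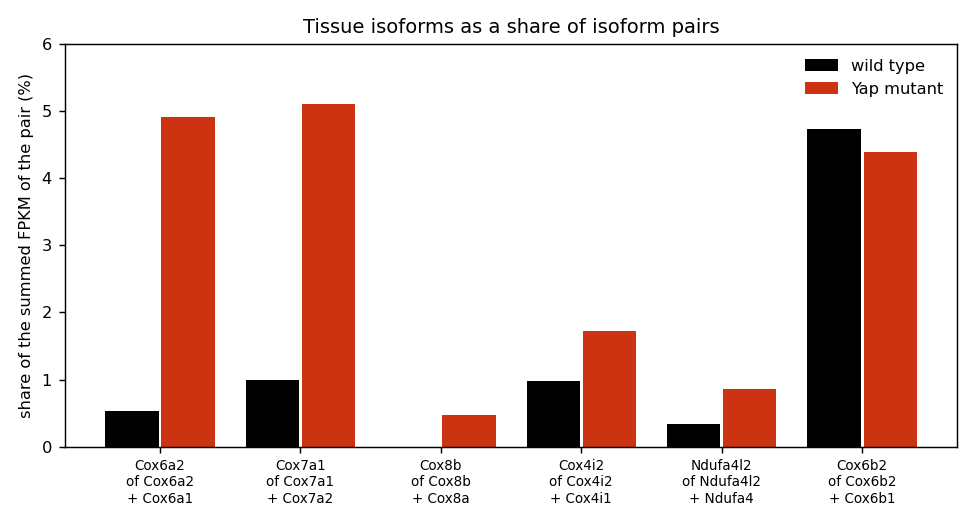
Bars give the share of a tissue isoform in the summed FPKM of the isoform and its ubiquitous partner, in percent, in wild-type (black) and *Yap* mutant (red) lungs. *Cox6a2* and *Cox7a1* go from below 1% to 4.90% and 5.10%, while *Cox6b2* is at 4.74% and 4.40%.

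The promoters of *Cox7a1* and *Cox8b*, 2 of the 3 muscle isoforms, and of the ubiquitous partners are shown. They let these isoforms, higher in the mutants from at most 1.40 FPKM, be read beside genes that take the same place in the complex. *Cox6a1* is shown without its muscle partner, since no promoter was found for *Cox6a2*. In the RefSeq promoter table, 66 of the 84 members were found. They are RefSeq sequences of GRCm38.p6, from 250 bases before to 50 after the start of transcription, 5′ to 3′ on the strand of the gene, with matches to the searched motifs in capitals. They lie at chr5:115348909-115349208 (minus strand) for *Cox6a1*, chr9:79759804-79760103 (minus) for *Cox7a2*, chr7:30183921-30184220 (plus) for *Cox7a1*, chr19:7217567-7217866 (minus) for *Cox8a* and chr7:140900397-140900696 (minus) for *Cox8b*.
Cox6a1: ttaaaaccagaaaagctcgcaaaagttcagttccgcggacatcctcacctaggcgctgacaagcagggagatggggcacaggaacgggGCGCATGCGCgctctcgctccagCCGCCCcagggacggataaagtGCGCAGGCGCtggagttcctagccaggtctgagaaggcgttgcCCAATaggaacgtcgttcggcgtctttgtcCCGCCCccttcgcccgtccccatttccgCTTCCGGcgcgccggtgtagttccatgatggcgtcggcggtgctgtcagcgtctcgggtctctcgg
Cox7a2: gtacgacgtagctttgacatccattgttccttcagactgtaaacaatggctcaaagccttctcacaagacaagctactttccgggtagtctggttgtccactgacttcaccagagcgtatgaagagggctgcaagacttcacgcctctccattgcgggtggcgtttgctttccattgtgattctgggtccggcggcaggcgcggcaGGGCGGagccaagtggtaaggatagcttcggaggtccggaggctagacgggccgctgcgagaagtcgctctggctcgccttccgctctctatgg
Cox7a1: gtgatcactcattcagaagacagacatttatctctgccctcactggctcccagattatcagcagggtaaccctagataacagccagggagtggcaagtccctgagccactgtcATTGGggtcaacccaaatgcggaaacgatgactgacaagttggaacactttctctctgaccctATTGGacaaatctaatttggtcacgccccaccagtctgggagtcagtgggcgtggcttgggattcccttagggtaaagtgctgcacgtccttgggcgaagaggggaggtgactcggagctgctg
Cox8a: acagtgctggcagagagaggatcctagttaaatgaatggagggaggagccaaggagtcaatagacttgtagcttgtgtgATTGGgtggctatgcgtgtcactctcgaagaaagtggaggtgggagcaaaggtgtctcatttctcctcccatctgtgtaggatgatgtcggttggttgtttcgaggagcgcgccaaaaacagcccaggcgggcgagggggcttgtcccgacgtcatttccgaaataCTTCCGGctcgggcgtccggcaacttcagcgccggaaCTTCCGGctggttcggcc
Cox8b: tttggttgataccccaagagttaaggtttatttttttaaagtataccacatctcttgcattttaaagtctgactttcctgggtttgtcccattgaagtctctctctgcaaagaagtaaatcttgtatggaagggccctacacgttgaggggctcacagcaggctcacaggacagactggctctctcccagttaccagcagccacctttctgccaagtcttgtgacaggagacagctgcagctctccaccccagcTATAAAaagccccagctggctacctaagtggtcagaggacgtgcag

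The ubiquitous genes had more CG dinucleotides in these windows, with 32 in *Cox6a1*, 20 in *Cox7a2* and 19 in *Cox8a*, against 7 in *Cox7a1* and 2 in *Cox8b*. The motifs searched on both strands, 9 in all, were NRF1 (GCGC, then A and any base, then GCGC), ETS (CCGGAAG), YY1 (AAGATGGC), Sp1 (GGGCGG), the CCAAT box (CCAAT), the TATA box (TATAAA), TEAD (GGAATG), the ERR site (CAAGGTCA) and a loose MEF2 frame (CTA and TAG with 4 bases between them). *Cox6a1* held 2 NRF1 matches, 1 ETS match, 2 Sp1 matches and a CCAAT box, *Cox8a* held 2 ETS matches and a CCAAT box, and *Cox7a2* held an Sp1 match. *Cox7a1* held 2 CCAAT boxes, and *Cox8b* held the letters of the TATA box. Those letters begin at base 255 of the window, after the annotated start of transcription. Neither promoter held a match to NRF1, ETS or TEAD in these windows.

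NRF1 and the ETS factor GABP are known regulators of nuclear genes for the respiratory chain. Of 66 promoters found for 61 of the 73 ubiquitous subunits, 18 (27.3%) held an NRF1 match, beside 4.6% of all 32841 promoters and 9.75% of the 11931 promoters of genes that passed the filter. An ETS match was in 24.2%, beside 8.86% and 17.0%, and a YY1 match in 13.6%, beside 2.75% and 4.33%. The TEAD letters, which belong to the DNA partners of YAP, were in 12.1%, beside 14.7% and 12.3%. The ERR letters were in 6.06%, beside 1.56% and 0.972%, and the MEF2 frame in 1.52%, beside 3.69% and 2.84%. Sp1 was in 36.4%, beside 35.7% and 63.7%, the CCAAT box in 40.9%, beside 37.4% and 37.5%, and the TATA box in 9.09%, beside 13.6% and 6.95%. A YY1 match was in 7 of the 34 promoters of complex I (20.6%) and in 2 of the 16 of complex V (12.5%). Complexes II, III and IV, with 3, 5 and 8 promoters, had 0. Matches of different motifs overlapped at 2 places in the members' promoters (in *Ndufs3* and *Atp5j2*). The median number of CG dinucleotides was 19 in the ubiquitous subunits, 7 in all promoters and 21 in those of genes past the filter. A match is a description of letters and shows no binding.

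**Figure D4:**
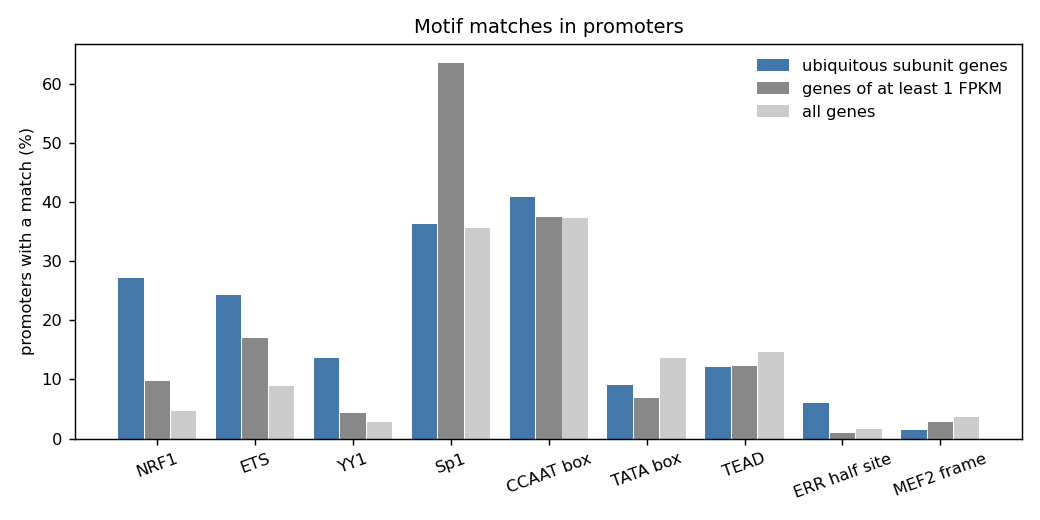
Bars give the percentage of promoters with at least 1 match to each motif, for ubiquitous subunit genes (blue, 66 promoters), genes with at least 1 FPKM (dark grey) and all genes (light grey). NRF1 is at 27.3%, 9.75% and 4.6%, while TEAD is at 12.1%, 12.3% and 14.7%.

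The muscle isoforms were set beside the muscle markers. The 13 cardiac markers that passed the filter had a median log2 ratio of 3.26, with a range from 1.34 to 6.41, and the values of *Cox6a2* (3.32) and *Cox7a1* (2.50) lay within that range. *Tnnt2*, cardiac troponin T, had 10.7 and 107 FPKM (log2 ratio 3.32), the myosin light chain *Myl7* had 39.3 and 306 FPKM (log2 ratio 2.96), and the myosin heavy chain *Myh6* had 4.39 and 60.2 FPKM (log2 ratio 3.75). Markers of skeletal muscle did not share one direction, since 6 of 11 were higher and 5 lower. *Myog* and *Myod1*, the regulators of the skeletal muscle lineage, had 1.51 and 0.826 FPKM and 0.702 and 0.440 FPKM. *Tnni1*, the slow troponin I that embryonic heart also makes, had 9.76 and 68.1 FPKM in a list that summed to 22 FPKM in wild-type and 79.2 FPKM in *Yap* mutant lungs. The part of muscle RNA in the values of the isoforms was not tested.

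Among 12 genes of energy supply in striated muscle, chosen after the isoforms were seen, 11 were higher in *Yap* mutant lungs, and the 9 that passed the filter had a median of 0.60. *Pgam2*, the muscle phosphoglycerate mutase, had 3.40 and 24.4 FPKM (log2 ratio 2.81). *Fabp3*, a fatty acid binding protein of heart, had 3.69 and 10.1 FPKM (log2 ratio 1.43). *Slc25a4*, the adenine nucleotide carrier of heart and muscle, had 376 and 432 FPKM (log2 ratio 0.20), whereas its relative *Slc25a5* had 328 and 314 FPKM (log2 ratio -0.06). On the log2 scale, the difference between the carrier genes was small beside that between the isoforms of complex IV. In FPKM, the rise of *Slc25a4* was larger than the 17.1 FPKM added by *Cox6a2*.

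**Figure D5:**
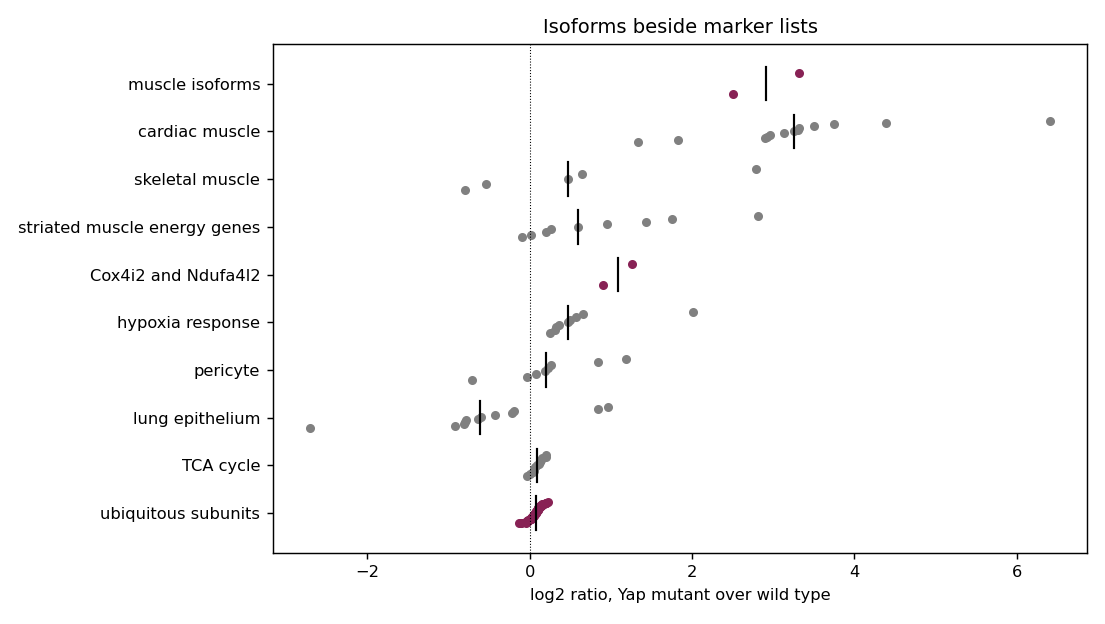
The horizontal axis is the log2 ratio of *Yap* mutant over wild-type FPKM, each point is a gene past the filter of 1 FPKM, black ticks are list medians, and the respiratory chain genes are in purple. The muscle isoforms lie in the range of the cardiac markers (median 3.26), *Cox4i2* and *Ndufa4l2* lie above the median of the hypoxia genes (0.47), and the ubiquitous subunits gather near 0.07.

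The isoforms of lung, vessels and low oxygen were also higher in *Yap* mutant lungs. *Cox4i2* (chromosome 2, 152754173 to 152765037), the lung isoform of subunit 4 and a known gene of pericytes and of the response to low oxygen, had 4.08 FPKM in wild-type and 7.75 FPKM in *Yap* mutant lungs (log2 ratio 0.91). Its share of the sum with *Cox4i1* was 0.974% and 1.72%. *Ndufa4l2* (chromosome 10, 127514939 to 127522444, a span shared with 1 other row), a target of hypoxia-inducible factor, had 1.09 and 2.76 FPKM (log2 ratio 1.26). Its share of the sum with *Ndufa4* was 0.338% and 0.866%. *Cox6b2*, a testis isoform, did not follow, at 17.4 and 16.9 FPKM (log2 ratio -0.04).

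Lists for these settings were chosen after the isoforms were seen. Of 10 genes of the hypoxia response, 9 had a locus, and all 9 were higher in the mutants, with a median ratio of 0.47 on the log2 scale. The glucose carrier *Slc2a1* had 42.2 and 59.7 FPKM (log2 ratio 0.50), the mitochondrial protein *Bnip3* had 28.8 and 42.9 FPKM (log2 ratio 0.57), and *Pdk1*, which holds back the entry of pyruvate into the TCA cycle, had 8.74 and 12.2 FPKM (log2 ratio 0.47). The summed level of the list was 163 FPKM in wild-type and 221 FPKM in *Yap* mutant lungs. Of 8 pericyte genes, 6 were higher and 2 lower, with summed levels of 116 and 124 FPKM. *Rgs5*, a defining pericyte marker, was lower in the mutants, at 13.9 and 8.46 FPKM (log2 ratio -0.70), and *Abcc9* was higher, at 0.767 and 1.87 FPKM (log2 ratio 1.18). The part of either in the values of *Cox4i2* and *Ndufa4l2* was not tested.

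The wider mitochondrial program was described by lists fixed for this purpose. Of 13 enzymes of the TCA cycle, 12 were higher in the mutants, with a median ratio of 0.09 on the log2 scale, and none (0) passed the threshold. *Idh3a*, a catalytic subunit of isocitrate dehydrogenase, had 33.9 and 39.1 FPKM (log2 ratio 0.20), and *Cs*, citrate synthase, was the 1 that was lower, at 114 and 111 FPKM (log2 ratio -0.04). Of 41 assembly factors with a locus, which help to build the complexes and stay out of the finished enzymes, 26 were higher and 15 lower, with a median of 0.02. Their median wild-type level was 14.4 FPKM, and none (0) passed the threshold. The widest ratios among them were in complex IV. *Coa4* had 9.79 and 12.2 FPKM (log2 ratio 0.316, just below the threshold), and *Pet100* had 7.12 and 5.81 FPKM (log2 ratio -0.29). *Cox17*, the copper chaperone of complex IV, had 45.8 and 55.0 FPKM (log2 ratio 0.27).

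The list of 12 electron carrier genes consisted mostly of *Coq* genes, which serve the synthesis of ubiquinone. It also held *Cycs*, *Cyc1*, *Etfa*, *Etfb* and *Etfdh*. Of the 12, 9 were higher, with a median of 0.05. *Cycs*, cytochrome c itself, had 54.8 and 54.3 FPKM (log2 ratio -0.01), and *Etfb*, of the electron transfer flavoprotein, had 80.0 and 98.1 FPKM (log2 ratio 0.29). For 14 genes of protein import and of nucleotide or ion exchange, 7 were higher and 7 lower, with a median of 0.00. Of 14 regulators of mitochondrial biogenesis, 13 passed the filter, and their median was 0.03. The threshold was passed by 1 of them, *Esrra*, a nuclear receptor that controls energy metabolism, at 5.45 FPKM in wild-type and 8.31 FPKM in *Yap* mutant lungs (log2 ratio 0.60). *Nrf1*, whose motif is described above, had 22.2 and 19.6 FPKM (log2 ratio -0.18), and *Gabpa*, the ETS subunit of GABP, had 26 and 26.5 FPKM (log2 ratio 0.03), in a locus span that it shares with *Atp5j*. The coactivator *Ppargc1a* was low, at 1.2 and 1.32 FPKM.

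Because *Xist* and the Y-linked genes differed between the genotypes, the members on the X chromosome were described apart. *Ndufa1* had 73.1 and 81.0 FPKM (log2 ratio 0.15), *Ndufb11* had 130 and 141 FPKM (log2 ratio 0.11), and *Cox7b* had 114 and 125.4 FPKM (log2 ratio 0.13). All 3 were thus higher in *Yap* mutant lungs, each by less than the threshold, and the 444 loci on X that passed the filter had a median log2 ratio of 0.00. Markers of red blood cells, which passed the filter at 8 loci, were higher at all 8, with a median of 0.15, and their part in the subunit values was not tested. Of 6 liver markers 3 were higher and 3 lower, with summed levels of 9.27 and 41.1 FPKM. *Afp* (5.42 and 22.3 FPKM), *Ttr* (0.492 and 13.5 FPKM) and *Apoa1* (1.27 and 3.65 FPKM) were higher. *Alb* (1.28 and 1.14 FPKM), *Apoa2* and *Serpina1a* were lower.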

How the data were processed

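The authors deposited 2 tables, of which the larger (24402 loci) was used and the other is their selection from it, and both give 1 FPKM value per genotype over 3 libraries of whole lung at 12.5 *dpc*. The unit FPKM was read from the layout of the deposited tables, which is that of Cuffdiff. The paper describes stranded paired-end libraries and analysis on the Maverix platform, and the submitters' processing notes name TopHat, Cuffdiff and mm10, without versions. Columns with the authors' fold changes and p-values were not used. No value column belonged to other samples (0). With no values for single libraries among those used, depth is unknown and no p-value was computed.

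Members and lists were chosen with earlier results of these data known. The lists for pericytes, hypoxia, striated muscle energy and further ATP synthase genes were added after the values of the members were seen. Ratios are log2((*Yap* mutant + 0.1)/(wild type + 0.1)). Medians and counts cover loci whose mean of both genotypes reached 1 FPKM, and the threshold for a difference was 25% higher or 20% lower in the mutants. All members could be named, apart from items not reported here, with both values for complex II, for the extremes of each complex, for tissue isoforms and for members on X. Symbols of 83 members were in GENCODE M21 (GRCm38), and all 83 loci overlapped the gene there. Starts in the table count from 0, and 1 was added. A locus span was shared with other rows for 13 members, most widely for *Ndufs7* and *Atp5d* (45 other rows each). Processed pseudogenes, which are common for these genes, can take up reads, which was not tested. The code was tested on simulated data. Python 3.11.15, numpy 2.4.6, pandas 2.3.3, scipy 1.17.1 and matplotlib 3.10.9 were used.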

Additional observations from a re-analysis of the deposited data

How the results depend on the processing

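The median log2 ratio of the subunits was recomputed, over all members and by complex, with a pseudocount of 1 FPKM or none, without the filter or with a filter of 10 FPKM on the mean, centred on the median of all loci, with equal totals, over loci with 1 symbol, with the values of the second table, with the muscle isoforms included, over the ubiquitous subunits and, chosen after seeing the data, without the members that share a locus span. All 57 values were above 0 and moved by less than the median absolute deviation of the members, 0.05. The settings of 1 symbol and of the second table could not move a median, since no member (0) had several symbols or other values there. With equal totals the medians of complexes II and V went from 0.04 to 0.09 and from 0.04 to 0.08. The median over all members lay between 0.07 and 0.12, the highest with equal totals, where the median of all loci was 0.04. The number of members higher by the fold threshold, 2 in the report, was 13 at 1.1-fold. It was 0 where the mean had to reach 10 FPKM, and 3 without the filter, where *Cox7b2* was counted. Without the members that share a locus span it was 1, because *Ndufa4l2* shares one. At 1.1-fold, 21.6% of all loci were higher and 19.3% lower. The number lower by the threshold was 0 under every setting tried for it, fold thresholds of 1.1 and 1.5 included. No paired analysis was possible because the table holds 1 pooled value for each genotype, and for the same reason no library could be left out. The unknown depth and spread between libraries limit every value, above all the low ones of *Cox8b*, *Cox7b2* and *Ndufa4l2*.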
